A study of Mus musculus with 2 samples.

Results

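Dendritic cells are the leukocytes that take up antigen and present it to T cells, and 10 genes that mark them were followed in RNA-seq of whole omentum. The genes were chosen by symbol: Flt3 and Zbtb46 for conventional dendritic cells as a whole, Xcr1, Clec9a, Batf3, Irf8 and Itgae for type 1 conventional dendritic cells (cDC1), Cd209a and Clec10a for type 2 conventional dendritic cells (cDC2), and Siglech for plasmacytoid dendritic cells (pDC). All 10 were among the 24346 gene symbols listed in each library. The omentum is abdominal fat with milky spots, which are clusters of lymphocytes, macrophages and stromal cells under the mesothelium. Libraries were made from omenta of WT mice and of Postn-DTR mice, both 5 days after injection of diphtheria toxin (DT), to ask which transcripts are lost with the Aldh1a2+ fibroblastic reticular cells. Postn-DTR mice were heterozygous, with the DT receptor inserted into the first coding exon of 1 copy of Postn, so that DT reaches any cell with an active Postn promoter and not only omental fibroblasts. The line was made in C57BL/6 zygotes, and controls were littermates when feasible. Neither age nor the number of mice behind a library was given in the sources used here.

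Conventional dendritic cells need FLT3 signalling for their development and express the transcription factor ZBTB46. cDC1 depend on IRF8 and BATF3, sense dead cells through CLEC9A and carry the chemokine receptor XCR1, and they are known for cross-presentation to CD8 T cells. cDC2 present mainly to CD4 T cells, and pDC are known for making type I interferon. Several of the genes are not restricted to dendritic cells: Irf8 is also used by B cells and monocytes, Itgae by T cells, Zbtb46 by endothelial cells, and Clec10a by macrophages.

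There was 1 library per genotype, so no difference below has a replicate check and no p-value is given. Values are FPKM, fragments scaled to transcript length and library depth. The change of a gene is its log2(FPKM + 1) in Postn-DTR less that in WT, a scale that shrinks differences at low FPKM. Fold values of single genes are ratios of FPKM without the pseudocount. Their 95% intervals come from estimated reads and cover counting error only, not the spread between mice. In whole tissue, fewer cells of a type and less RNA per cell cannot be told apart.

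The steps between low values put the depth of the WT library near 23300000 fragments and that of the Postn-DTR library near 24100000. Postn, the targeted gene, stood at 58.3 FPKM in WT and 16.2 in Postn-DTR, 3.61-fold lower (counting interval 3.38 to 3.86). Because 1 Postn copy carries the insertion in Postn-DTR mice, insertion and cell loss cannot be told apart in this value. The adipocyte gene Adipoq (955.2 and 635.9) and the mesothelial gene Upk3b (211.6 and 181.9) were present in both libraries. Neither stands for its whole list. Of 7 adipocyte genes 6 had a lower and 1 a higher value in Postn-DTR, and of 6 mesothelial genes 2 a lower and 4 a higher one. The libraries differed in pancreatic acinar genes, the 33 listed ones summing to 2.41% of all FPKM in WT and 0.00308% in Postn-DTR. Total FPKM was also unequal, at 542190 for the WT library against 671882 for the Postn-DTR library. The acinar genes held only 13071.7 and 20.7 of these totals, and leaving them out widens the gap. Scaling both libraries to the same total without the acinar genes shifted all genes by a median of -0.30. This shift follows mainly from the unequal totals and not from the acinar genes. A change of that size in a single gene cannot be separated from scaling.

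In Postn-DTR omentum 9 of the 10 dendritic cell genes had a lower FPKM than in WT, and Clec10a had a higher one. The largest folds were those of Xcr1, which was 5.35-fold lower, Flt3, 4.40-fold lower, and Clec9a, 3.61-fold lower. The transcription factors Irf8, Batf3 and Zbtb46 were 1.45-fold, 1.41-fold and 1.18-fold lower. Clec10a alone went from 71.1 to 148.2 FPKM. With Clec10a included, the total over the 10 genes was higher in Postn-DTR (208.6 FPKM) than in WT (176.2). Leaving it out gave 60.4 for Postn-DTR against 105.1 for WT. That smaller total had to be lower, because each of its 9 genes was lower. Irf8 alone supplied 35.2 of the 60.4 and 51.1 of the 105.1.

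**Figure D1:**
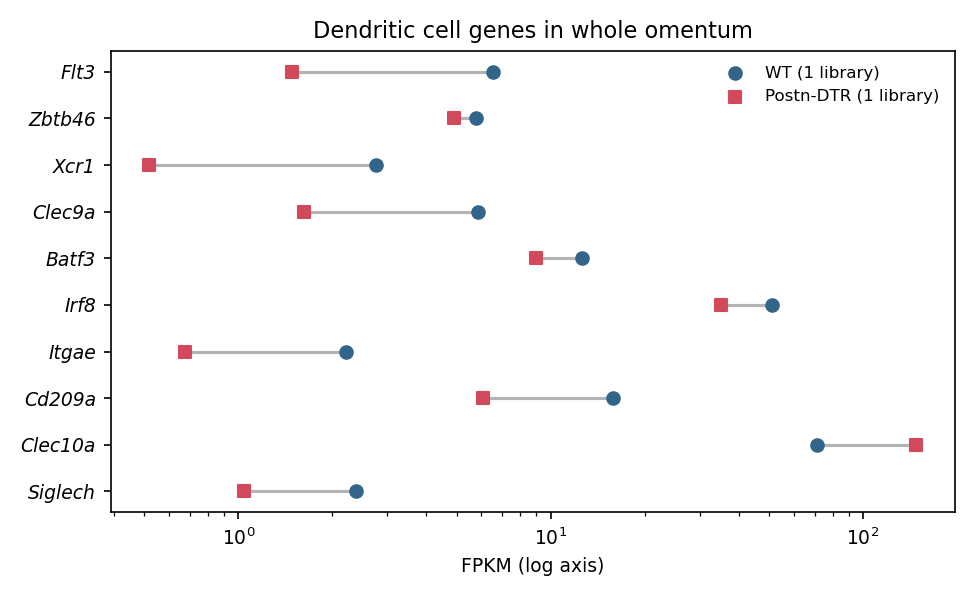
FPKM of the 10 dendritic cell genes (log axis) in the WT library (circles) and the Postn-DTR library (squares), 1 library each, without error bars because there are no replicates. The Postn-DTR value is to the left of the WT value for 9 genes and to the right for Clec10a, and the distance is widest for Xcr1 (2.77 and 0.517).

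All 10 genes passed the minimum of a mean FPKM of 1 over both libraries, with means from 1.44 for Itgae to 109.7 for Clec10a. Xcr1 (0.517) and Itgae (0.674) were under 1 in Postn-DTR and passed only through WT, where they were higher, so that their place among the lower genes was partly set by the minimum. At least 2-fold lower by log2(FPKM + 1) were 4 of the 10, namely Flt3, Clec9a, Xcr1 and Cd209a, against 3.12% of the 13127 genes compared and 2.89% of those within the same range of mean FPKM. At least 2-fold higher was 1 of the 10, Clec10a, against 3.88% and 3.49%. By the FPKM ratio without a pseudocount, a reading added after the data were seen, 6 of the 10 were at least 2-fold lower, with Itgae and Siglech added, against 5.2% of all genes, and 1 was at least 2-fold higher, against 5.04%. The median change of the 10 genes was -0.83, beside 0.02 over all genes compared, of which 48.1% had a change below 0. Of all genes past 2-fold in either direction 55.4% were higher, and 28.7% at equal totals without acinar genes, where Itgae joined the lower members and Clec10a, at a change of 0.71, was no longer 2-fold higher. At these equal totals the median change was -0.98 for the 10 genes and -0.28 over the 12928 genes compared.

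**Figure D2:**
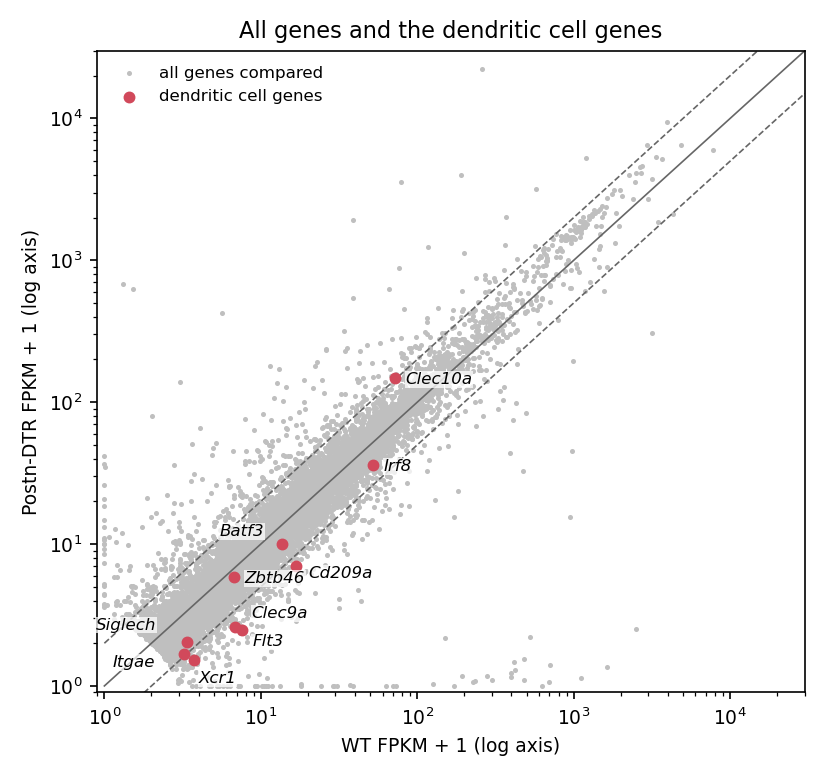
FPKM + 1 in WT (horizontal) and in Postn-DTR (vertical), both on log axes, for the 13127 genes compared (grey) and the 10 dendritic cell genes (red); the solid line marks equal values and the dashed lines 2-fold. Flt3, Clec9a, Xcr1 and Cd209a lie under the lower dashed line and Clec10a just over the upper one.

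The stretches of genome directly upstream of the 4 genes at least 2-fold lower are shown as the regulatory sequence next to their starts. They are the 250 bases before each RefSeq start in GRCm38.p6, 5′ to 3′ on the strand of the gene, and capitals mark the ETS core GGAAGT or its reverse complement. The windows are chr5:147400490-147400739 on the minus strand for Flt3, chr6:129408612-129408861 on the plus strand for Clec9a, chr9:123862030-123862279 on the minus strand for Xcr1 and chr8:3748985-3749234 on the minus strand for Cd209a.
Flt3: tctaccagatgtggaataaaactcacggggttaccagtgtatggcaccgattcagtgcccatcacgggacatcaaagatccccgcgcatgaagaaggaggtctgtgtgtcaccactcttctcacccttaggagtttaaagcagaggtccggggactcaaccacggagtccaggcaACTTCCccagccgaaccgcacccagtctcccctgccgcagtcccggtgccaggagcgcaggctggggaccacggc
Clec9a: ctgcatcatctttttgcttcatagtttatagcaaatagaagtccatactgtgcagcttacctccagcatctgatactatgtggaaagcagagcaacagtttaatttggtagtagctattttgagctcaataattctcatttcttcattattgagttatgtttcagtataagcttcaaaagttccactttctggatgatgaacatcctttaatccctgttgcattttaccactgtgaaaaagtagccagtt
Xcr1: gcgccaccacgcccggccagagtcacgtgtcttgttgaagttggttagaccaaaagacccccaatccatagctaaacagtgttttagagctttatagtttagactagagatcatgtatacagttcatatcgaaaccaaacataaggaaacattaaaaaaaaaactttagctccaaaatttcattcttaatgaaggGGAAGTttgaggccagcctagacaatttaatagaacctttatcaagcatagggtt
Cd209a: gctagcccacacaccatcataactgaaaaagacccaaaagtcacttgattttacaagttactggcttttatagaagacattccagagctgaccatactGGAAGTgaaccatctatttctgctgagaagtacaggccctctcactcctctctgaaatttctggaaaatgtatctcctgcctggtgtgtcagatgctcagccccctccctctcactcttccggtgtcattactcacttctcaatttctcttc
The Flt3, Xcr1 and Cd209a windows each hold 1 such match and the Clec9a window holds none. RefSeq windows were found for 8 of the 10 genes, with 2 for Irf8. Of these 9 windows 5 hold GGAAGT on either strand (Flt3, Xcr1, Cd209a, Batf3 and Siglech), against 19.7% of the 32851 windows of all genes. Searched on both strands, the ETS-IRF composite (GGAA, any 2 bases, GAAA; 2.3% of all windows), the interferon-stimulated response element (GAAA, any 2 bases, GAAA; 2.98%) and the E-box CAGCTG (13%) were found in none of the 9, and the AP-1 site TGANTCA (6.75%) in that of Zbtb46 alone. The motifs were chosen after matches had been seen, when GAGGAA, the PU.1 site and the AP-1-IRF composite were also looked at, and the GGAA of the ETS-IRF composite may overlap GGAAGT. A match is a description of letters and not of binding.

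Flt3 encodes the receptor tyrosine kinase through which FLT3 ligand drives dendritic cell development. The gene (ENSMUSG00000042817, chromosome 5, 147330741 to 147400489 on the minus strand, GRCm38) stood at 6.56 FPKM in WT and 1.49 in Postn-DTR, about 528 and 124 estimated reads. This was 4.40-fold lower (counting interval 3.62 to 5.40) with a change of -1.60, and 1.12% of all genes compared had a more negative change. Over the alternatives its change ranged from -2.14 to -0.83. Flt3l, its ligand, singled out after its values were seen, stood at 23.3 and 15.2, or 1.54-fold lower. Zbtb46 (ENSMUSG00000027583, chromosome 2, 181387762 to 181459426 on the minus strand), the transcription factor of conventional dendritic cells, stood at 5.78 in WT and 4.90 in Postn-DTR, 1.18-fold lower (1.05 to 1.32). Its change of -0.20 was smaller than the shift between scalings. Flt3 to Zbtb46 was 1.14 in WT and 0.304 in Postn-DTR, a ratio within each library that no scaling alters.

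All 5 cDC1 genes were lower, the surface receptors by larger factors than the transcription factors. Xcr1 (ENSMUSG00000060509, chromosome 9, 123852315 to 123862029 on the minus strand), the receptor of the chemokine XCL1, stood at 2.77 FPKM in WT and 0.517 in Postn-DTR. These values rested on about 274 and 53 estimated reads, and the fold of 5.35 had an interval of 3.97 to 7.32. Clec9a (ENSMUSG00000046080, chromosome 6, 129408862 to 129424763 on the plus strand), the lectin that binds actin filaments exposed on dead cells, stood at 5.85 and 1.62, about 421 and 121 reads. It was 3.61-fold lower (2.93 to 4.44). With the pseudocount the changes were -1.31 for Xcr1 and -1.39 for Clec9a, so the order of these neighbours turned with the scale, and their intervals overlapped.

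Itgae (ENSMUSG00000005947, chromosome 11, 73090583 to 73147446 on the plus strand) encodes the αE integrin CD103, found on cDC1 of tissues and on T cells. It stood at 2.21 FPKM in WT and 0.674 in Postn-DTR, 3.28-fold lower (2.43 to 4.47), with a change of -0.94. Cd8a, carried by resident cDC1 and by CD8 T cells, stood at 2.81 and 0.897. Itgae to Cd8a was 0.787 in WT and 0.751 in Postn-DTR, while Itgae to Cd3e, a gene of the T cell receptor complex, was 0.142 and 0.0987, or 1.44-fold lower. All 11 T cell genes compared had a lower value (median change -0.95, with Lck at 20.3 and 8.37). The part of T cells in the Itgae value was not tested.

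Batf3 and Irf8 are the transcription factors on which cDC1 depend. Batf3 (ENSMUSG00000026630, chromosome 1, 191097847 to 191108945 on the plus strand) stood at 12.6 FPKM in WT and 8.95 in Postn-DTR, 1.41-fold lower (1.12 to 1.78). Irf8 (ENSMUSG00000041515, chromosome 8, 120736358 to 120756694 on the plus strand) stood at 51.1 and 35.2, 1.45-fold lower (1.38 to 1.54). Neither reached 2-fold, and the alternatives gave changes from -0.76 to -0.34 for Batf3 and from -0.86 to -0.48 for Irf8. None of these alternatives could have turned a lower gene into a higher one. Within the libraries, Clec9a to Batf3 was 0.464 in WT and 0.181 in Postn-DTR, and Xcr1 to Batf3 was 0.219 and 0.0578. All 9 B cell genes had a lower value in Postn-DTR (median change -0.61), and the part of B cells in the Irf8 value was not tested.

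**Figure D3:**
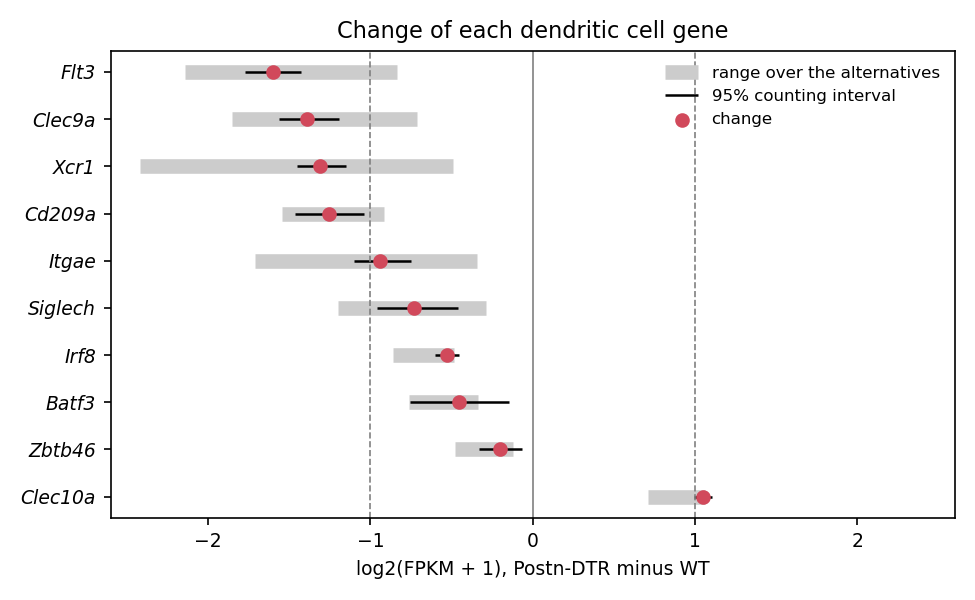
Difference between Postn-DTR and WT in log2(FPKM + 1) (horizontal axis, positive where Postn-DTR is higher), for each dendritic cell gene, ordered by this change; points are the change, thin bars the 95% counting interval and grey bars the lowest to highest change over the scaling, pseudocount and filter alternatives. Dashed lines mark 2-fold, and the bars of 9 genes lie wholly below 0 and those of Clec10a wholly above it. None of these alternatives could move a lower gene above 0.

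The cDC2 genes went in opposite directions. Cd209a (ENSMUSG00000031494, chromosome 8, 3743397 to 3748984 on the minus strand), a mouse homologue of the lectin DC-SIGN, stood at 15.8 FPKM in WT and 6.05 in Postn-DTR. It was 2.62-fold lower (2.2 to 3.11), with a change of -1.26. Clec10a (ENSMUSG00000000318, chromosome 11, 70156197 to 70170834 on the plus strand), a galactose-type lectin of cDC2 and macrophages, stood at 71.1 and 148.2. It was 2.08-fold higher (2.0 to 2.17), with a change of 1.05, and 3.53% of all genes compared had a more positive change. Cd209a to Clec10a was 0.223 in WT and 0.0408 in Postn-DTR.

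Mgl2, the neighbour and close paralog of Clec10a on chromosome 11 (70130329 to 70137550 on the plus strand), was lower, as Cd209a was, while Clec10a was higher. It stood at 60.9 FPKM in WT and 22.3 in Postn-DTR, 2.74-fold lower (2.52 to 2.98). Clec10a and Mgl2 were thus at similar levels in WT, with a ratio of 1.17, and at a ratio of 6.66 in Postn-DTR. Cd209a to Mgl2 was 0.260 and 0.272. As paralogs, Clec10a and Mgl2 may share some reads, and so may the genes of the Cd209 cluster, so their separate values are uncertain. Of the 6 Cd209 genes compared, 5 were lower and Cd209b was higher, at 2.81 and 4.64, and Cd209a was the only one at least 2-fold lower. Cd209f, the most abundant of the cluster, stood at 29.5 and 20.03.

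**Figure D4:**
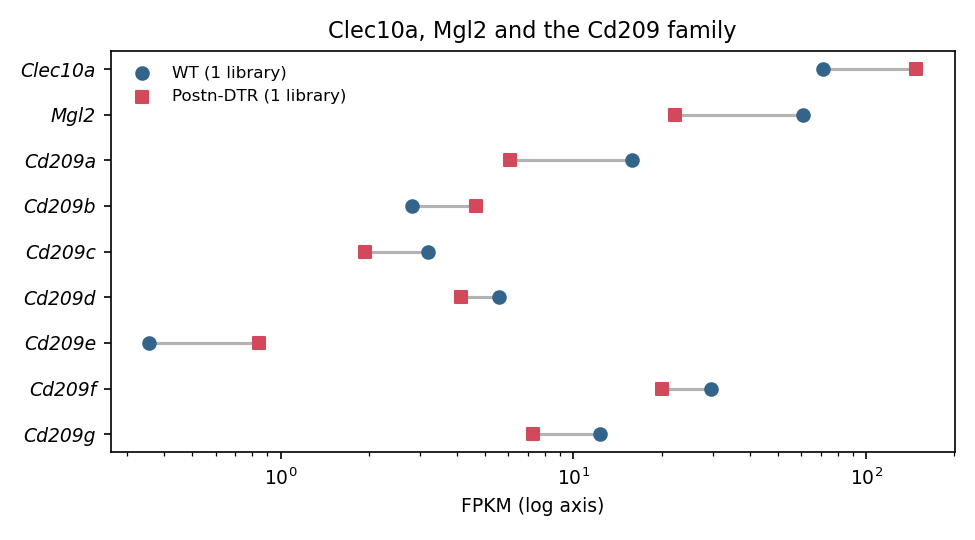
FPKM (log axis) of Clec10a, its paralog Mgl2 and the 7 genes of the Cd209 family in the WT library (circles) and the Postn-DTR library (squares), 1 library each. Clec10a is higher in Postn-DTR (71.1 and 148.2) while Mgl2 (60.9 and 22.3) and Cd209a (15.8 and 6.05) are lower; Cd209e, under a mean FPKM of 1, was not compared.

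Siglech (ENSMUSG00000051504, chromosome 7, 55768178 to 55778925 on the plus strand) encodes a surface receptor of the Siglec lectin family that marks pDC. It stood at 2.39 FPKM in WT and 1.04 in Postn-DTR, about 117 and 53 estimated reads, and 2.29-fold lower (1.64 to 3.22). Its change of -0.73 did not reach 2-fold with the pseudocount. Related Siglec genes of other cells did not share a direction: Siglec1, of macrophages, stood at 13.7 and 19.7, and Siglecg, of B cells, at 25.3 and 14.5.

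By level per length, the order in WT was Clec10a, Irf8, Cd209a, Batf3, Flt3, Clec9a, Zbtb46, Xcr1, Siglech and Itgae. In Postn-DTR it was Clec10a, Irf8, Batf3, Cd209a, Zbtb46, Clec9a, Flt3, Siglech, Itgae and Xcr1. Neighbours such as Clec9a (5.85) and Zbtb46 (5.78) in WT cannot be ordered without replicates. Xcr1 moved from above Siglech and Itgae in WT to the lowest place in Postn-DTR, and Zbtb46 from under Flt3 and Clec9a to above both.

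Each gene was also read against the 5 pan-leukocyte genes, which did not share a direction (median change -0.19). Ptprc, which encodes CD45, and Coro1a, an actin-binding protein, had lower values in Postn-DTR (55.6 and 35.4 FPKM for Ptprc, 225.2 and 129.6 for Coro1a), as did Cd52 (485.6 and 426.8), whereas Laptm5 (225.1 and 403.7) and Cd53 (48.1 and 63.2) had higher ones. Relative to each of the 5, Flt3, Xcr1, Clec9a, Itgae, Cd209a and Siglech were lower in Postn-DTR and Clec10a was higher. Xcr1 was between 3.08-fold (against Coro1a) and 9.59-fold (against Laptm5) lower, Flt3 between 2.53-fold and 7.90-fold, and Clec9a between 2.08-fold and 6.48-fold. For Batf3, Irf8 and Zbtb46 the direction rested on the reference: they were 1.11-fold, 1.08-fold and 1.33-fold higher relative to Ptprc, also higher relative to Coro1a, and lower relative to Laptm5, Cd52 and Cd53.

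Further genes of the same cell types were taken from lists chosen with earlier results of these data known. For every list below, the shares over all genes compared were 3.12% at least 2-fold lower and 3.88% at least 2-fold higher. Of 10 other cDC1 genes 7 had a lower value in Postn-DTR, and their median change was -0.66. At least 2-fold lower were 3 of them: Tlr11, a receptor of microbial proteins (2.86 and 0.249), Gcsam (2.30 and 0.603) and Cd8a (2.81 and 0.897). All 3 were under 1 FPKM in Postn-DTR and passed the minimum only through WT, so this count says little of the list. The cDC1 markers Wdfy4, needed for cross-presentation, Cadm1, an adhesion molecule, and Tlr3, a sensor of double-stranded RNA, were 2.06-fold, 1.76-fold and 1.75-fold lower by the FPKM ratio, and none of these 3 reached 2-fold with the pseudocount. Among the most abundant genes of the list, Naaa, a lysosomal amidase, had a lower value (61.5 and 38.9), and Id2, a transcription factor that cDC1 share with innate lymphoid and many other cells (56.7 and 98.1), and Snx22, a sorting nexin (44.5 and 58.2), had higher ones. Nfil3, a transcription factor upstream of cDC1 development that many other cells use, went from 12.9 to 41.6, the only one of the list at least 2-fold higher.

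Of 11 other cDC2 genes compared, Mgl2 was at least 2-fold lower and Irf4, a transcription factor of cDC2, B cells and activated macrophages, was at least 2-fold higher (13.3 and 41.0). The median change of this list was 0.19, and it turned to -0.15 at equal totals without acinar genes. Of the 11 genes 7 had a higher and 4 a lower value in Postn-DTR. Sirpa, shared by cDC2 and macrophages, stood at 61.3 and 74.7, Esam at 64.9 and 69.3 and Ltbr at 48.4 and 55.4, and their directions also turned at equal totals. Cd24a (65.5 and 93.0) and Klf4 (29.0 and 51.0) had higher values. The median change of 13 other pDC genes compared was -0.11. Of these, 4 were at least 2-fold lower, against 3.12% of all genes compared, and none was at least 2-fold higher, against 3.88%. At least 2-fold lower were the transcription factor Spib (44.3 and 19.0) and the DNA sensor Tlr9 (10.003 and 3.69), both also used by B cells. So were Cox6a2 (2.63 and 0.363) and Klk1 (150.6 and 1.17). Cox6a2 was under 1 FPKM in Postn-DTR, passed the minimum only through WT, and rested on about 29 and 4 estimated reads. Klk1 is a tissue kallikrein that is abundant in pancreas, and its lower value stood beside those of the acinar genes, whose part in it was not tested. Tcf4, the transcription factor of pDC, had a change of -0.11. The widely expressed Bst2 stood at 131.2 and 137.8, and its direction turned at equal totals. Ly6d stood at 155.65 and 127.3 and Irf7 at 38.0 and 50.2. Of the 13 pDC genes 7 had a lower and 6 a higher value in Postn-DTR.

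Genes that dendritic cells share more generally were lower in part. Of 10 such genes 5 were at least 2-fold lower, against 3.12% of all genes compared, and none was at least 2-fold higher, against 3.88%. Their median change was -0.70. Itgax, which encodes the integrin CD11c, stood at 11.2 and 4.06, Kmo, an enzyme of kynurenine metabolism, at 7.70 and 2.2, and Bcl11a, a transcription factor of pDC and B cells, at 7.0 and 2.27. Cst3, which encodes cystatin C and is abundant in dendritic cells and macrophages, stood at 1103 and 1460. All 10 MHC class II presentation genes had a lower value, with a median change of -1.01, and 5 of them were at least 2-fold lower. Ciita, the transactivator of MHC class II genes, went from 15.6 to 3.75, and Cd74, the invariant chain, from 3451 to 1875. B cells and macrophages also use these genes.

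Among 15 genes of mature and migratory dendritic cells 2 were at least 2-fold lower and 2 at least 2-fold higher, with a median change of -0.12. Ccr7, the receptor that guides dendritic cells and naive T cells to CCL19 and CCL21, went from 8.45 to 3.18, and Il4i1, an amino acid oxidase of mature dendritic cells and B cells, from 16.2 to 2.0. The chemokine Ccl17 went from 1.65 to 5.85 and the signalling inhibitor Socs2 from 14.1 to 30.7. Fscn1, an actin-bundling protein of mature dendritic cells, stood at 34.5 and 21.9, and Marcks at 38.4 and 19.2. Cacnb3 (29.53 and 29.45) and Relb (25.1 and 24.2) were close in both libraries. Of the 15 genes 10 had a lower and 5 a higher value in Postn-DTR.

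Of 12 growth factors, chemoattractants and receptors that act on dendritic cells and were compared, 4 were at least 2-fold lower and none was at least 2-fold higher, with a median change of -0.50. Of the ligands of CCR7, Ccl19 stood at 61.1 and 17.8 and Ccl21a at 17.0 and 18.6. The direction of Ccl21a turned at equal totals, and no reads were estimated for either ligand. Beside Ccl19, those at least 2-fold lower were the receptors Ccr2 (39.6 and 16.4), Ccr6 (7.18 and 2.78) and Cx3cr1 (16.7 and 4.92), which monocytes, B cells and macrophages also carry. Csf1r, the macrophage growth factor receptor, stood at 158.3 and 219.1, Csf2ra at 49.2 and 74.9, and Csf1 at 46.7 and 34.8. Of the 12 genes 8 had a lower and 4 a higher value in Postn-DTR.

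**Figure D5:**
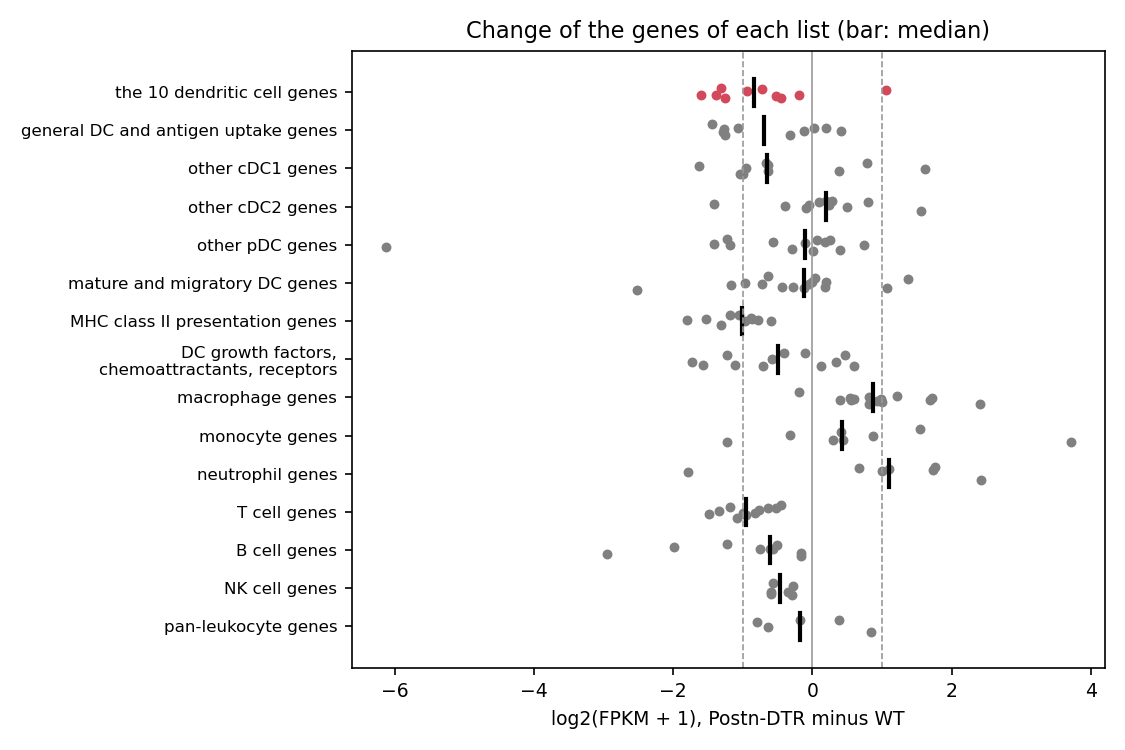
Difference between Postn-DTR and WT in log2(FPKM + 1) (horizontal axis, positive where Postn-DTR is higher), of each compared gene in the list of 10 dendritic cell genes (red) and in 14 other lists (grey), with black bars at the medians and dashed lines at 2-fold. The medians of the dendritic cell genes (-0.83), MHC class II (-1.01) and T cell genes (-0.95) lie to the left, those of macrophage (0.87) and neutrophil genes (1.10) to the right, and some genes appear in more than 1 list.

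Lists of markers of other leukocytes were also compared, and most macrophage, monocyte and neutrophil genes had higher values in Postn-DTR. Of 14 macrophage genes 13 had a higher value in Postn-DTR and 4 were at least 2-fold higher, and their summed FPKM was 5070 in WT and 8735 in Postn-DTR, with none at 0. Clec10a, 2.08-fold higher, lay within the range of this list. Adgre1, which encodes F4/80 (41.1 and 137.6), Cd68, Itgam and Cd163 had a larger ratio of Postn-DTR to WT than Clec10a, the other 10 macrophage genes had a smaller one, and the list's sum was 1.72-fold higher. The part of macrophages in the Clec10a value was not tested. Of 8 monocyte genes 2 were at least 2-fold higher and 1, Ccr2, lower (summed FPKM 845.2 and 1540). Fn1 alone held 459.1 and 836.8 of these sums, and Chil3 12.1 and 170.0. Of 7 neutrophil genes 4 were at least 2-fold higher and 1 lower (summed FPKM 395.7 and 700.5). Among these 4, Cxcr2 was under 1 FPKM in WT and passed the minimum only through Postn-DTR.

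The lymphocyte lists went the other way. Of 11 T cell genes 5 were at least 2-fold lower (summed FPKM 114.4 and 52.6), and so were 3 of 9 B cell genes (528.9 and 365.4). Among these, Cd8a and Cr2 were under 1 FPKM in Postn-DTR and passed the minimum only through WT. None of the 6 NK cell genes compared reached 2-fold (47.5 and 34.2). All compared genes of these 3 lists had a lower value in Postn-DTR. No gene of the macrophage, monocyte, neutrophil, T, B or NK cell lists was at 0 in either library, and the part of these cells in the dendritic cell values was not tested.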

How the data were processed

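Total RNA of whole omentum was used for stranded mRNA libraries, per the labels, with 1 library for WT and 1 for Postn-DTR mice. The authors deposited FPKM, 1 value per gene symbol. The submitters' processing notes name TopHat2 2.1.1, Bowtie2 2.2.8, SAMtools 0.1.18, Cuffdiff 2.2.1 and build mm10; the annotation was not given in the sources used here. Positions and lengths came from GENCODE M21 (GRCm38, the same build). The members and gene lists were chosen with earlier results of these data known.

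Changes were computed as log2(FPKM + 1) differences in Python 3.11.15 for genes whose mean FPKM reached 1. Named genes were drawn from the 10 members, their paralogs, Postn, and in each list the up to 4 most abundant and the up to 4 with the largest change. Not every gene that meets this rule is named. Wdfy4, Cadm1, Tlr3 and Tcf4 fall outside this rule and are named as cell type markers. Ccl21a also falls outside it and is named as a ligand of CCR7 beside Ccl19. Ratios to pan-leukocyte genes were added after seeing the data.

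Depth was estimated from whole-read steps. The value of 1 read in Postn-DTR was 0.967 of that in WT, the commonest ratio (174 of 723 low genes). Denominators and a length reduction of 202 bp were those that made most low values of genes with 1 transcript whole (70% in WT and 69.9% in Postn-DTR, within 0.05 reads). Reads of members used the longest protein-coding transcript and are approximate; intervals are exact binomial. All members exceeded the floor of 3 reads. The steps were tested on simulated data. Other pseudocounts, minimums, scalings and thresholds were tried.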

Additional observations from a re-analysis of the deposited data

How the results depend on the processing

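The direction of each of the 10 genes was the same under all alternatives that gave it a value: 3 scalings, pseudocounts of 0.1 and 5, no minimum, a minimum mean FPKM of 5, and, added after seeing the data, the FPKM ratio without a pseudocount. A pseudocount, a minimum or the plain ratio cannot turn a direction. All 3 scalings lowered Postn-DTR relative to WT, so only the direction of Clec10a could have turned. The median change of the 10 genes was -1.25 with a pseudocount of 0.1, -0.41 with a pseudocount of 5, -1.29 by the ratio, and -0.45 with a minimum of 5, which 5 genes passed. The 4 lower members became 0 with a pseudocount of 5, 1 (Cd209a) with a minimum of 5 and 1 (Flt3) at 3-fold. Clec10a was the only higher member, and the number was 0 with the 75th percentile scaling, at 3-fold and at equal totals. The 410 lower genes of all compared became 643 and 168 with pseudocounts of 0.1 and 5, 249 with a minimum of 5, 682 by the ratio, 1160 at 1.5-fold, 153 at 3-fold and 732 at equal totals. Higher were 509 genes, against 287 for a pseudocount of 5, 1294 at 1.5-fold, 199 at 3-fold and 294 at equal totals. A larger pseudocount, minimum or threshold lowers such counts by construction. For single members 51 alternative values stayed within the counting interval and 24 did not. The 51 include the values under other minimums, which leave a gene's change as it was by construction. No paired analysis was possible because each group had 1 library, and none could be left out. Depth limits Xcr1 and Siglech most, each with about 53 estimated reads in Postn-DTR.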
